A study of Homo sapiens with 5 samples.

Results

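Autophagy and mitophagy genes were compared between HUDEP-2 cells labelled ERF knockout and HUDEP-2 cells labelled wild type, by bulk RNA-seq of total RNA. HUDEP-2 cells are immortalised erythroid progenitors made from umbilical cord blood, and ERF is a transcriptional repressor of the ETS family. There were 3 libraries labelled knockout and 2 labelled wild type, and the titles of the latter carry letters, SCR, that no label explains. The labels give no drug or culture stage, and the letters Pre in the name of the comparison are left unexplained, so the values may be limited to a stage that is not known here. The labels also do not say whether the knockout cells are 1 clone or several, or whether replicate libraries stem from separate cultures. The p-values thus measure only the spread between these libraries, which may be technical. The members are a list of 43 genes of autophagy initiation, conjugation, cargo capture and mitochondrial clearance. Of these, 41 were found by symbol and ATG101 by its identifier, under an older name, so that 42 of the 11976 genes in the authors' deposited table were members. The transcription factor TFEB was not analysed here.

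Autophagy encloses cytoplasm, protein aggregates or organelles in a double membrane and delivers them to the lysosome. A kinase complex and a lipid kinase complex start the membrane, lipid transfer proteins enlarge it, and ATG8 proteins are attached to it, where cargo receptors dock. Red cell precursors use this pathway to clear their mitochondria, a step in which BNIP3L (also called NIX) is the best known receptor.

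For each gene the authors' deposited table holds the mean level over all libraries, as log2 CPM (counts scaled to library size), with the log2 fold change between the groups, its F statistic and its p-values. Values per library were not analysed here, so no level is given for a single library, and library depths are unknown. The table names no reference group. The sign was set so that the γ-globin gene HBG2 is higher in the libraries labelled knockout, because the title of the series has γ-globin come back on once ERF is lost. With SE as the standard error, HBG2 then had a log2 fold change of 1.88 (SE 0.22) in the authors' deposited table, where its near-identical copy makes its value uncertain. ERF RNA went against the knockout label under this sign, with a log2 fold change of 0.89 (SE 0.07, adjusted p = 6.44e-06), from the authors' deposited table. "Higher" and "lower" below refer to the libraries labelled knockout under this assumed sign and to genes called at an adjusted p below 0.05. With the other sign every direction is exchanged, while the sizes, the calls and the contrasts between genes stay as they are. All 8 erythroid markers examined were in the authors' deposited table, at 6.90 to 12.48 mean log2 CPM, against 0 of 5 lymphoid markers, 1 of 5 granulocyte and monocyte markers (LYZ, at 0.48) and 1 of 4 megakaryocyte markers (ITGA2B, at 7.26). Of the erythroid markers, 6 of 8 were higher, among them the anion exchanger SLC4A1 at 1.77, the transferrin receptor TFRC at 1.01 and the globin gene HBA1 at 0.75 on the log2 scale in the authors' deposited table. GATA1 (-0.12) was not called there, and when fold changes were centred on abundant genes (mean of 5 log2 CPM or more), a check chosen after seeing the data, 6 were higher and GATA1 (1 of 8) lower. The part of this difference in red cell markers, and of other cells, in the results was not tested.

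Most autophagy genes differed little between the groups, and those that did moved in both directions. Of the 42 members, 8 were higher, 9 lower and 25 not called, which is 40.5% called against 50.9% of all genes in the authors' deposited table. By direction, 24.9% of all genes were higher and 25.9% lower there. The median log2 fold change was 0.07 over the members and -0.0019 over all genes, and the median size regardless of sign was 0.13 against 0.21. A 2-fold change was reached with a call by 3.27% of all genes and by 0 members as deposited, though CALCOCO2 passed it after that centring (-1.01 on the log2 scale). The member with the largest change was CALCOCO2, a cargo receptor, at 1.97-fold lower, followed by PIK3R4, a subunit of the lipid kinase complex, at 1.45-fold higher, SQSTM1, a cargo receptor, at 1.36-fold higher and FOXO3, a transcription factor, at 1.29-fold lower, all from the authors' deposited table. Regardless of sign, 3.50% of all genes had a larger log2 fold change than CALCOCO2, 13.8% a larger one than PIK3R4, 19.4% than SQSTM1 and 25.7% than FOXO3.

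**Figure D1:**
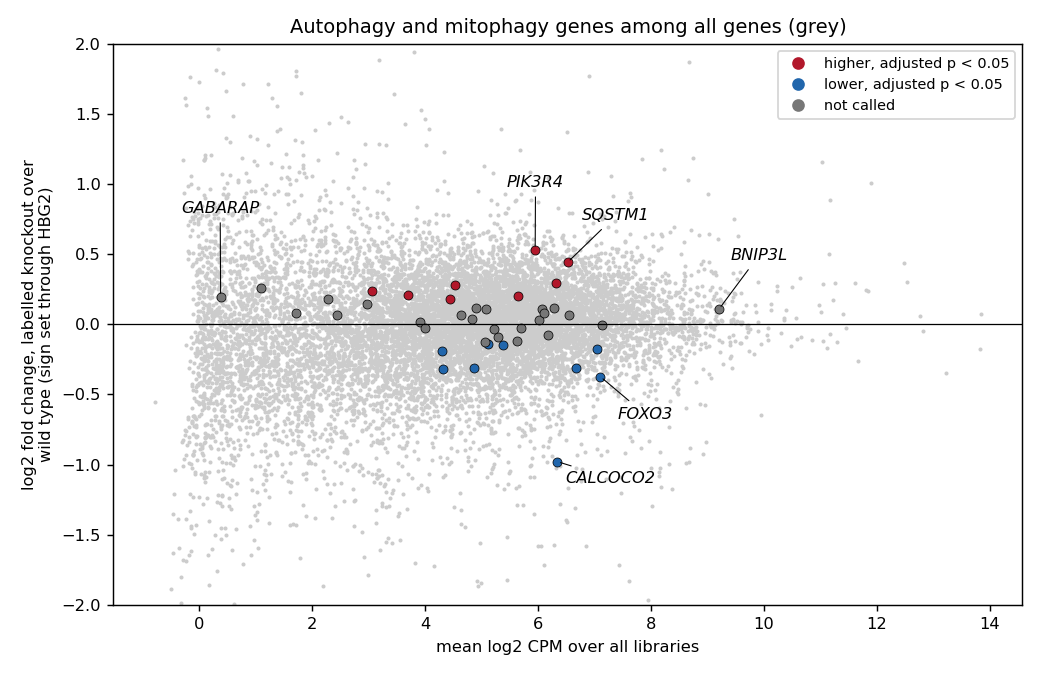
Mean log2 CPM over all libraries (horizontal) and log2 fold change (vertical, sign set through HBG2) for all genes in grey and for the 42 members in colour, from the authors' deposited table. CALCOCO2 lies lowest among the members at -0.98 and PIK3R4 highest at 0.53. The vertical axis stops at 2 in each direction, which leaves 49 other genes out of view.

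The share of members called is given by expression level, where each band holds few members and a dependence on level was not tested. Of 24 members with a mean of at least 5 log2 CPM, 10 were called (41.7%), against 56.2% of all genes at that level. Between 3 and 5 log2 CPM the count was 7 of 12 members (58.3%) against 51.1% of all genes. Under 3 log2 CPM it was 0 of 6 members against 41.8% of all genes. For the 25 members not called, the 95% interval of the log2 fold change stayed within 0.25 in either direction for 17 and within 0.5 for 23. Those intervals rest on a standard error derived from the fold change and F in the authors' deposited table.

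Promoter sequences are shown for 3 members because ERF belongs to the ETS family, whose factors bind a GGAA core: the lowest member, the highest member, and the called member with the most copies of a longer ETS core. They come from RefSeq on GRCh38.p14, whereas the submitters' processing notes name hg19, and they cover up to 250 bases before the start of transcription, less bases that GENCODE 29 places in exons. Capitals mark GGAAG or CCGGAA on either strand (CTTCC or TTCCGG as printed), and these letters overlap where both occur. The last stretch holds the 2 copies of ATG16L1 nearest to its start, which lie in an exon of GENCODE 29.
CALCOCO2, chr17:48830785-48830987, plus strand: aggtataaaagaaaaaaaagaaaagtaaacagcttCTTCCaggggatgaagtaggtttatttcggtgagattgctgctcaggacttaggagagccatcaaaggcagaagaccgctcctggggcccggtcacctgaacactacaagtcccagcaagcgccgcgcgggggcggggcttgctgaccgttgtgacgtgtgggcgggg
PIK3R4, chr3:130746830-130747079, minus strand: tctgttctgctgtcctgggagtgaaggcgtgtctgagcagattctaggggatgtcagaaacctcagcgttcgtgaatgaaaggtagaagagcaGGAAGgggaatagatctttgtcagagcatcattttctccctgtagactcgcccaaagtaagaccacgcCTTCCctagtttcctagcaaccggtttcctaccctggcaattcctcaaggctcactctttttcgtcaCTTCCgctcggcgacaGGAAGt
ATG16L1, chr2:233251423-233251570, plus strand: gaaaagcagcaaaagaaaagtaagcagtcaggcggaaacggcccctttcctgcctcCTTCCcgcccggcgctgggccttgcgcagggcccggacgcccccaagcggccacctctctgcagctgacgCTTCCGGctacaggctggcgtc
ATG16L1 near the start, chr2:233251634-233251661, plus strand: TTCCGGccctctcgaaaatcatTTCCGG

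In these windows of 250 bases CALCOCO2 held 1 copy of GGAAG and 0 of CCGGAA, PIK3R4 held 4 and 0, and ATG16L1 held 3 and 3. GGAAG is common, present in 65.1% of all 35116 RefSeq promoter windows of that length, whereas CCGGAA is present in 14.5% of them and in 24.2% of the 12338 windows of genes matched by symbol to the authors' deposited table. Windows were matched for 36 of the 42 members, and 13 of these 36 genes had CCGGAA in at least 1 of their windows (13 of 47 windows, 27.7%). By gene, that is 36.1% of the members against 32.0% of the 8478 matched genes in the authors' deposited table. By call, CCGGAA was found for 4 of 7 higher members, 3 of 8 lower members and 6 of 21 members not called. Genes with several windows had more chances of a match, so the counts by call are not alike. Of the higher members with CCGGAA, SQSTM1 had 3 windows, ATG5 and WIPI2 had 2 each and ATG16L1 had 1. Among lower members only FOXO3, without CCGGAA, had more than 1, namely 4. Among members not called, AMBRA1, NBR1, OPTN and TAX1BP1 had 2 each, all without CCGGAA. All these counts are matches of letters, and binding of ERF was not analysed here.

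The kinase complex that starts autophagy, held off by mTORC1 when nutrients are plentiful, was called for 4 of its 5 genes, in both directions. Counts for this and the other roles below rest on 2 to 6 genes each, beside 50.9% of all genes called. The kinases and the large scaffold of this complex were lower, by small amounts. ULK1, the main kinase, had a log2 fold change of -0.32 (SE 0.07, 95% interval -0.47 to -0.17, adjusted p = 0.00245), from the authors' deposited table. ULK2, its close relative, stood at -0.19 (adjusted p = 0.0339) in the authors' deposited table. RB1CC1, the large scaffold also called FIP200, stood at -0.17 there (adjusted p = 0.0179). Regardless of sign, 52.4% of all genes had a larger log2 fold change than ULK2 and 56.3% than RB1CC1. The calls of ULK2 and RB1CC1 were lost at an adjusted p below 0.01. The adaptor ATG101, which stabilises ATG13, was higher at 0.24 (adjusted p = 0.0373 in the authors' deposited table), a call that was lost when fold changes were centred on abundant genes, those with a mean of 5 log2 CPM or more (0.21, adjusted p = 0.0664). ATG13 itself, at 0.11, was not called in the authors' deposited table (adjusted p = 0.0755).

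In the lipid kinase complex, which makes the phosphoinositide that marks the new membrane, a single gene of 6 was called. PIK3R4 (ENSG00000196455, chromosome 3), the regulatory subunit also called VPS15 that holds the kinase at membranes, had a log2 fold change of 0.53 (SE 0.05, 95% interval 0.42 to 0.64, adjusted p = 1.62e-05), from the authors' deposited table. Its partner PIK3C3, the catalytic subunit also called VPS34, stood at -0.02 (95% interval -0.12 to 0.07) in the authors' deposited table, so the intervals of these partners did not overlap. BECN1, the core scaffold, stood at 0.11, and AMBRA1, which binds BECN1, at -0.03, in the authors' deposited table. ATG14 and UVRAG, which replace each other in alternative forms of the complex, stood at -0.12 and -0.09 in the authors' deposited table. None of these 5 genes was called, but ATG14 was lower after centring on abundant genes (-0.16, adjusted p = 0.0280).

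Among genes that supply membrane, 1 of 5 was higher and 1 lower. WIPI2, which reads the phosphoinositide and recruits ATG16L1, was higher at 0.30 (SE 0.05, adjusted p = 0.000479), from the authors' deposited table. ATG2B, a lipid transfer protein, was lower at -0.31 (SE 0.05, adjusted p = 0.000936), from the authors' deposited table. Its relative ATG2A stood at 0.07, the scramblase ATG9A at 0.03 and WIPI1 at 0.02 in the authors' deposited table, and none of the 3 was called.

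The conjugation machinery attaches ATG8 proteins to lipid in steps like those of ubiquitin, and 2 of its 6 genes were higher. ATG16L1, which places the ligase on the membrane, stood at 0.28 (SE 0.06, adjusted p = 0.00353), and its ligase partner ATG5 at 0.20 (adjusted p = 0.0204), from the authors' deposited table. ATG12, the ubiquitin-like protein joined to ATG5, stood the other way at -0.12 in the authors' deposited table and narrowly missed the call (adjusted p = 0.0516). It was lower after centring on abundant genes (-0.15, adjusted p = 0.0173). The activating enzyme ATG7 stood at -0.03, and the conjugating enzymes ATG3 and ATG10 at 0.12 and 0.07, with no call in the authors' deposited table.

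All 4 ATG4 proteases, which trim ATG8 proteins before attachment and release them afterwards, were called, 3 lower and 1 higher. Of all genes 50.9% were called, and at an adjusted p below 0.01 only ATG4A of these 4 kept its call. ATG4A stood at -0.31 (SE 0.06, adjusted p = 0.00140), ATG4B at -0.15 (adjusted p = 0.0442) and ATG4C at -0.14 (adjusted p = 0.0493), from the authors' deposited table. ATG4D was higher at 0.21 in the authors' deposited table (adjusted p = 0.0341). The calls of ATG4C and ATG4D depended on the centring: ATG4C was lost when centred on all genes (adjusted p = 0.0517) and ATG4D when centred on abundant genes (0.17, adjusted p = 0.0673).

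**Figure D2:**
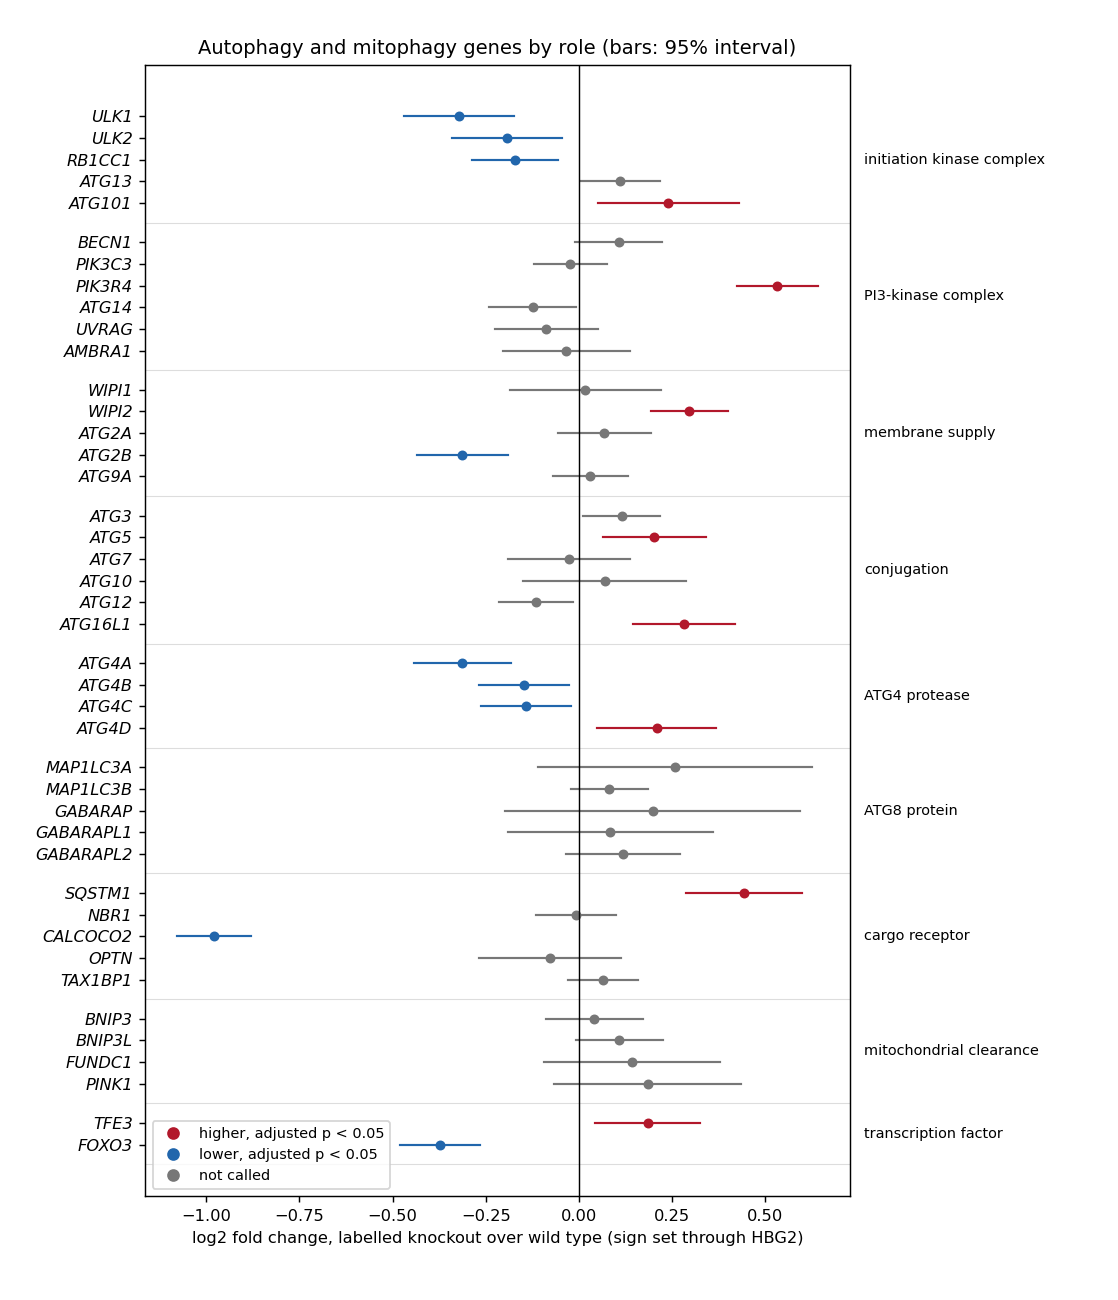
Log2 fold change (horizontal, sign set through HBG2) of each of the 42 members with its derived 95% interval, grouped by role, from the authors' deposited table. Red points are higher, blue points lower and grey points not called. CALCOCO2 stands apart at -0.98, and all 5 ATG8 genes and all 4 mitochondrial clearance genes lie right of 0 with no call.

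None of the 5 ATG8 genes, which encode the proteins that coat the autophagosome, was called, and their log2 fold changes ran from 0.08 to 0.26 in the authors' deposited table. MAP1LC3B, the usual marker of autophagosomes, had a log2 fold change of 0.08 and a narrow interval, -0.02 to 0.18, from the authors' deposited table. GABARAPL2 stood at 0.12 (interval -0.03 to 0.27) in the authors' deposited table. For MAP1LC3A (0.26), GABARAP (0.20) and GABARAPL1 (0.08), which lay at 1.10, 0.38 and 1.70 mean log2 CPM in the authors' deposited table, the upper bounds were 0.63, 0.59 and 0.36. Increases up to these upper bounds were thus not excluded by the intervals of these genes. MAP1LC3B has a near-identical copy, MAP1LC3B2, and GABARAPL1 a close pseudogene, GABARAPL3, so their counts are uncertain.

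Levels can be compared between genes per length, here as mean log2 CPM per kb of merged GENCODE 29 exons, an annotation that may differ from the one used for counting. On this scale the members ran from -0.80 to 7.09 with a median of 2.63. BNIP3L was the highest at 7.09, and the next members were FOXO3 at 4.15, RB1CC1 at 4.11 and NBR1 at 4.07. Of the ATG8 genes, MAP1LC3B (3.69) and GABARAPL2 (3.30) were well above MAP1LC3A (0.28), GABARAPL1 (-0.33) and GABARAP (-0.80), the lowest of all members. Exons of other genes overlap 55.7% of the exon bases of GABARAP on either strand, the largest such share of any member, and 30.5% on its own strand. The authors' deposited table has a class for reads that fit more than 1 gene, with 8.17% of its CPM, and whether it holds reads of GABARAP was not tested. Overlap of at least 25% was found for 3 further members, PINK1 (41.7%), ATG9A (38.8%) and WIPI1 (28.1%), none of which was called, and 20 members had none. Of the called members, SQSTM1 had the most, 22.0%, all of it on the opposite strand. The sources used here do not say whether counting used the strand.

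**Figure D3:**
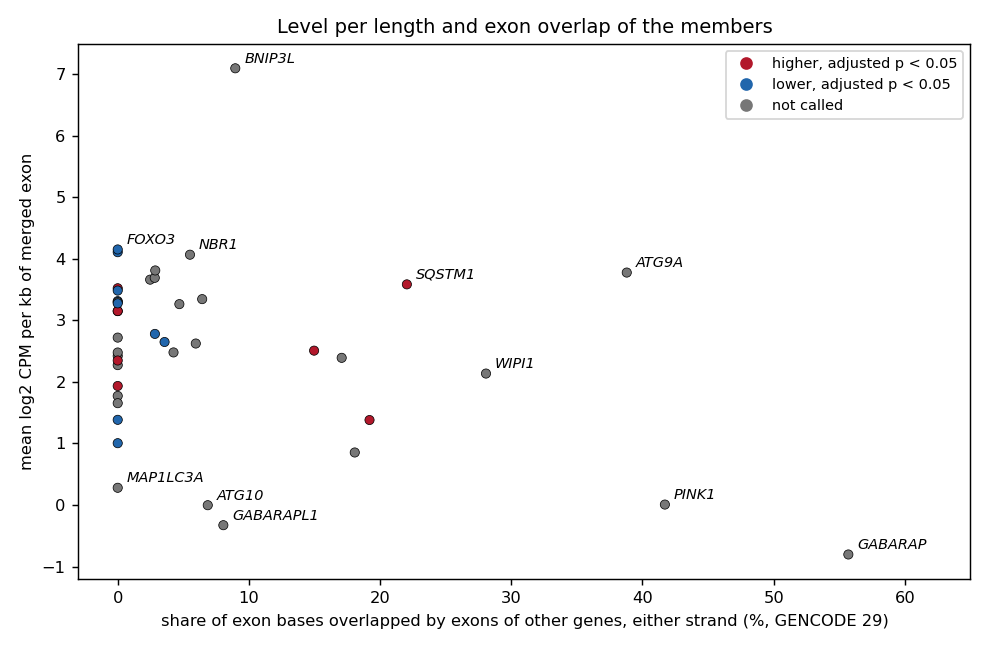
Share of each member's exon bases that exons of other genes overlap, in percent (horizontal), and its level as mean log2 CPM per kb of merged exon (vertical), over all libraries. BNIP3L is highest at 7.09, and GABARAP is both lowest, at -0.80, and most overlapped, at 55.7%.

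Cargo receptors bind ubiquitin-tagged cargo with one end and ATG8 proteins with the other. Of the 5 measured ones, 1 was higher, 1 lower and 3 not called. CALCOCO2 (ENSG00000136436, chromosome 17), also called NDP52, which captures invading bacteria and damaged mitochondria, was lower, with a log2 fold change of -0.98 (SE 0.04, 95% interval -1.08 to -0.88, adjusted p = 1.62e-07), from the authors' deposited table. SQSTM1 (ENSG00000161011, chromosome 5), also called p62, which gathers ubiquitinated proteins and is itself degraded by autophagy, was higher at 0.44 (SE 0.07, 95% interval 0.29 to 0.60, adjusted p = 0.000501), from the authors' deposited table. The other three, NBR1 (-0.01), OPTN (-0.08) and TAX1BP1 (0.06), were not called in the authors' deposited table. The interval of NBR1, a partner of SQSTM1 in aggregate clearance, was -0.12 to 0.10, and that of TAX1BP1, a close relative of CALCOCO2, was -0.03 to 0.16. Neither reached the interval of CALCOCO2 or of SQSTM1. All 5 receptors were well expressed, at 6.17 to 7.14 mean log2 CPM in the authors' deposited table.

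The 4 genes of mitochondrial clearance were not called. BNIP3L, the receptor that red cell precursors rely on, was the most abundant member at 9.20 mean log2 CPM and stood at 0.11 (interval -0.01 to 0.22, adjusted p = 0.110), both from the authors' deposited table. BNIP3, its hypoxia-induced relative, stood at 0.04 (interval -0.09 to 0.17) in the authors' deposited table. FUNDC1, a further outer membrane receptor, stood at 0.14, and the kinase PINK1, which marks damaged mitochondria, at 0.18 in the authors' deposited table. These 2 genes lay at 2.96 and 2.28 mean log2 CPM, with upper bounds of 0.38 and 0.43.

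Of the transcription factors among the members, which drive autophagy genes, both measured ones were called. FOXO3 (ENSG00000118689, chromosome 6), which acts in red cell maturation and induces autophagy genes under starvation, was lower at -0.37 (SE 0.05, 95% interval -0.48 to -0.27, adjusted p = 0.000143), from the authors' deposited table. A pseudogene of similar sequence, FOXO3B, makes its count uncertain. TFE3, which turns on lysosome and autophagy genes as TFEB does, was higher at 0.18 in the authors' deposited table (adjusted p = 0.0322). That call was lost after centring on abundant genes (0.15, adjusted p = 0.0702).

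A list of 57 further autophagy genes, of which 52 were measured, had 12 higher and 15 lower (51.9% called, against 50.9% of all genes), with a median log2 fold change of -0.03. Its 3 lowest called genes were ATG16L2, a relative of ATG16L1, at -0.87, PRKAB1, a subunit of the energy-sensing kinase AMPK that activates ULK1, at -0.60, and TMEM41B, a scramblase of the endoplasmic reticulum, at -0.33 in the authors' deposited table. Its 3 highest were the mitochondrial phosphatase PGAM5 at 0.53, the factor FOXO4 at 0.43 and the outer membrane channel VDAC1 at 0.39 in the authors' deposited table. By step, regulators of initiation and the lipid kinase had 3 of 14 higher and 5 lower, genes of autophagosome fusion with the lysosome 4 of 14 and 2, and other receptors and adaptors 1 of 9 and 3. Other genes of mitochondrial clearance had 3 of 11 higher and 3 lower, and other factors 1 of 4 and 2. The counts were not split by whether a gene promotes or restrains its step, so they give no direction for the step.

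Members and list genes were also set side by side by family, after their values were known. Of 11 such families, 5 held calls in both directions, or 3 after centring on abundant genes, where ATG4D and TFE3 lost theirs. With 24.9% of all genes higher and 25.9% lower, mixed families can arise in any grouping of genes. Whether these families exceed that was not tested. ATG16L1 (0.28) and ATG16L2 (-0.87) were called in opposite directions, with intervals of 0.14 to 0.42 and -0.99 to -0.75 in the authors' deposited table. In the FOXO family, FOXO3 (-0.37) was lower and FOXO4 (0.43) higher, and FOXO1 (0.25), at 1.18 mean log2 CPM, was not called in the authors' deposited table. Among WIPI proteins, WIPI2 (0.30) and WDR45B (0.25) were higher and WDR45 (-0.32) lower in the authors' deposited table. MITF, of the family of TFE3, was lower, at -0.20, from the authors' deposited table. In contrast, the ULK kinases were both lower, and CALCOCO1 (-0.14) was lower like CALCOCO2, though by far less, in the authors' deposited table. The differences between relatives were not tested, since values per library were not analysed here.

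**Figure D4:**
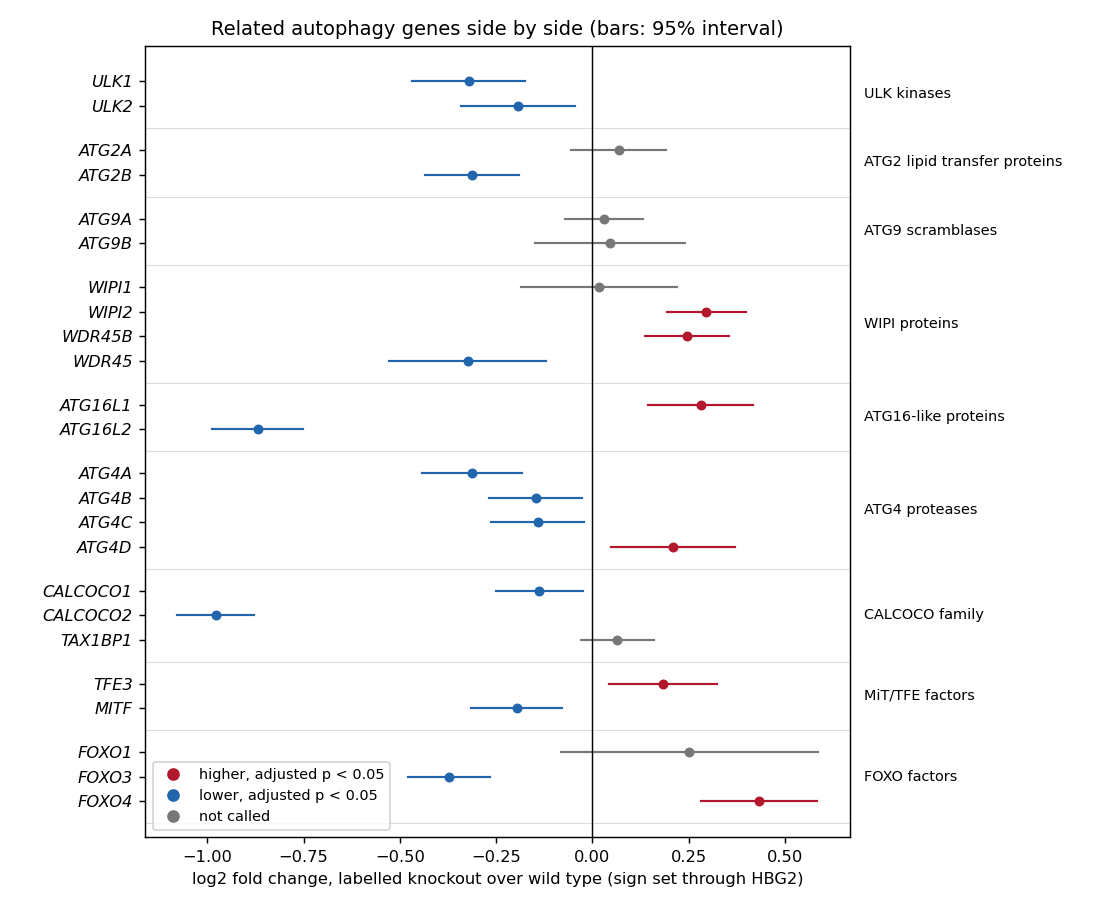
Log2 fold change (horizontal, sign set through HBG2) with the derived 95% interval for members and further autophagy genes grouped by family, from the authors' deposited table. Red points are higher, blue lower and grey not called. The ATG8 and BNIP3 families, which held no call, are not drawn. ATG16L1 at 0.28 and ATG16L2 at -0.87 lie far apart, as do FOXO4 at 0.43 and FOXO3 at -0.37.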

How the data were processed

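Total RNA was taken up in Trizol and made into Illumina TruSeq libraries, per the labels' protocols. The submitters' processing notes list edgeR 2.6.12, TopHat2 2.0.4, HTSeq, SAMtools and Cuffdiff, and the build hg19 (GRCh37), without saying what each did; the sources used here give neither the filter nor the normalization. The authors deposited, per the file headers, 1 row for each gene with the mean log2 CPM, the log2 fold change, the F score of a quasi-likelihood test, its p-value and the p-value after adjustment. Unless a centring is named, adjusted p-values printed are from this edgeR test by the authors. It holds 0 columns for single libraries and 11979 rows, 3 of which name no gene and take 21.5% of the CPM; these were left out of counts. Deposited log2 fold changes were multiplied by -1 so that HBG2 is higher in the knockout. The standard error is the size of the log2 fold change over the square root of F, and intervals use 10.3 degrees of freedom, the value implied by F and p together. Both are approximate, because the edgeR fit of the authors moderates fold changes. Adjusted p-values recomputed by the Benjamini-Hochberg method with NumPy 2.4.6 differed by at most 0.676% from those deposited. Centred values were tested with the derived standard error. That step was run on simulated data built from the same standard error and degrees of freedom, so recovering them checks only the calculation. The simulation changed far fewer genes than were called here, so it does not show that the centring suits these data. All members, the 3 lowest and 3 highest called genes of the further list, ERF and HBG2 are named by rule; families and other list genes were chosen after their values were seen. Members and lists were chosen with earlier results of these data known.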

Additional observations from a re-analysis of the deposited data

How the results depend on the processing

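Counts of members called, 8 higher and 9 lower, moved most with the threshold: an adjusted p below 0.01 gave 4 higher and 5 lower (35.9% of all genes called), and a log2 fold change of at least 0.5 in either direction gave 1 and 1 (15.3% of all genes). Centring on abundant genes (mean of 5 log2 CPM or more), which shifts every log2 fold change down by a median of 0.03, gave 5 higher and 11 lower members, and 2566 higher and 3532 lower genes overall in place of 2987 and 3105. It reversed the sign of 2 members with no call, WIPI1 (-0.017) and ATG9A (-0.0036). For the further autophagy genes, 12 higher and 15 lower, an adjusted p below 0.01 gave 8 and 5 and a log2 fold change of at least 0.5 gave 1 and 2. Centring on all genes, a minimum of 1 log2 CPM, and leaving out rows that name no gene kept all these counts within 1.5 times. Reading the sign the other way exchanges higher and lower, to 9 and 8 members and 15 and 12 further genes. No paired analysis was possible because the table has no values per library; leaving out replicates and DESeq2 were not run for the same reason. Precision is limited by 5 libraries of unknown depth, most for members under 3 log2 CPM.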

Other observations

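Other motifs were counted by gene in the same promoter windows, on both strands, beside the share of the 8478 genes matched to the authors' deposited table that held them in at least 1 window. CACGTG, the core that TFE3 binds, was found for 3 of 36 members (ATG3, ATG14 and BNIP3), none of them called, which is 8.33% against 11.9% of genes in that table. AGATAA, bound by factors such as GATA1, was found for 3 of 36 members (ATG13, NBR1 and TAX1BP1), none of them called, which is 8.33% against 6.77% of genes. TGATGNAA, a core bound by ATF4, was found for 0 of 36 members and for 2.09% of genes. These windows cover 250 bases before each start, and sites elsewhere were not searched.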
